A study of Mus musculus with 6 samples.

Results

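The 10 SOX transcription factor genes examined here were taken from a fixed list of symbols, *Sox1*, *Sox2*, *Sox3*, *Sox21*, *Sox4*, *Sox11*, *Sox12*, *Sox5*, *Sox6* and *Sox13*, and all 10 were found by their Ensembl identifiers among the 32493 genes of the count table. RNA-seq was run on neural stem cells (NSCs) taken from the lateral ventricles of E14.5 mouse embryos on a C57BL/6J background and grown for several generations in medium with EGF and bFGF. Embryos called cko were homozygous for a loxP-flanked miR-151 (fl/fl), which lies in an intron of *Ptk2*, and carried the Emx1-IRES-Cre driver of the dorsal telencephalon. Their ctrl littermates, called wt in the sample labels, were fl/fl as well but had no Cre, so that Cre and the deletion cannot be told apart. Libraries are reported for 2 ctrl and 3 cko samples, since in all 32493 genes the column of ctrl replicate 2 was the rounded-up average of the columns of replicates 1 and 3, so it entered no n. The sources do not say whether the libraries came from separate embryos or cultures, so that p-values measure the spread between these libraries, which may be technical. The comparison asks whether the SOX genes of progenitors were expressed at another level once miR-151 was deleted.

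SOX proteins bind DNA through an HMG box, which bends the helix and lets a partner protein settle beside it, and they are sorted into groups by the likeness of that box. The group B1 factors SOX1, SOX2 and SOX3 keep neural progenitors undifferentiated, while SOX21, of group B2, represses many of the genes that B1 factors activate. The group C factors SOX4, SOX11 and SOX12 are strongest in cells that leave the progenitor state, where they activate neuronal genes. The group D factors SOX5, SOX6 and SOX13 lack an activation domain of their own and adjust the output of other SOX proteins, in the brain mainly in projection neurons and in the oligodendrocyte lineage.

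The relation between the 10 genes is shown by the first 60 bases of coding sequence from the start of the conserved HMG box signature, read from GENCODE M21 transcripts. Capitals mark the bases that differ from *Sox2*. Group B genes other than *Sox2* differ from it at 6 or 7 bases of the stretch, *Sox21* no more than the B1 genes, and the group C and D genes at 16 to 24.
Sox2: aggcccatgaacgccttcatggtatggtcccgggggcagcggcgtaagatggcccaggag
Sox1: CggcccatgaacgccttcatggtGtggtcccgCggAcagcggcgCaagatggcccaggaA
Sox3: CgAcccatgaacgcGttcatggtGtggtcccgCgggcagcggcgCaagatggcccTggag
Sox21: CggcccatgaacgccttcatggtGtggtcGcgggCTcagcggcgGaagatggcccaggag
Sox4: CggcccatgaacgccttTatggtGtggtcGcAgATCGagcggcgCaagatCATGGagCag
Sox11: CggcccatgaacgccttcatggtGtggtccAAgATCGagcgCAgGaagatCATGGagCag
Sox12: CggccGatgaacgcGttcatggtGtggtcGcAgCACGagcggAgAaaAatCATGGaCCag
Sox5: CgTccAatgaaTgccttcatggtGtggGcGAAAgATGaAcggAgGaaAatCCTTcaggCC
Sox6: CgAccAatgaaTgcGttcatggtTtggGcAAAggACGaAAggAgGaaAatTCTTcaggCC
Sox13: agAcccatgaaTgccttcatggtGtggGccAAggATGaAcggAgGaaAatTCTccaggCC

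Over 75 codons from the same start, *Sox2* shared 96.0% of residues with *Sox1*, 93.3% with *Sox21* and 90.7% with *Sox3*. Its identity was 65.3% with *Sox4* and 53.3% with each of the 3 group D genes. In bases, *Sox2* matched *Sox1* at 89.8% and *Sox3* at 87.1%. Despite this likeness, no run of 50 bases in a transcript of one of the 10 genes occurred in a transcript of another of them, so that reads of that length would separate the members. Of the 50-base runs of *Sox4*, 54.1% also lay in the antisense lincRNA *Gm26735*, not analysed here, and 17.8% of those of *Sox21* lay in *Gm4675* on the opposite strand. The sources do not state whether strand was used in counting, so antisense reads cannot be told apart from *Sox4* or *Sox21* reads. *Gm4675* itself was counted at 2.77 to 4.18 normalized CPM (counts scaled to library size with the TMM factors of edgeR) in the 5 libraries. *Sox2* and *Sox1* lie within the long noncoding genes *Sox2ot* and *Sox1ot* and shared no exonic base with them.

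The members are spread over 10 chromosomes in GRCm38. The B and C genes each form 1 block of exonic sequence. *Sox2* (ENSMUSG00000074637) occupies chromosome 3 from 34650405 to 34652461 on the plus strand, *Sox3* (ENSMUSG00000045179) the X chromosome from 60891366 to 60893430 on the minus strand, *Sox4* (ENSMUSG00000076431) chromosome 13 from 28948919 to 28953713 on the minus strand, and *Sox21* (ENSMUSG00000061517) chromosome 14 from 118233232 to 118237030 on the minus strand. The group D genes are long and split. *Sox5* (ENSMUSG00000041540) runs over chromosome 6 from 143828425 to 144781977, with 25 exonic blocks and 14 annotated transcripts, and its count sums over these transcripts.

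Totals of 17883796 to 23335736 counts per library set a floor of 3 counts at 0.129 to 0.168 CPM, a limit that covers counting error only. Every member lay far above it, with 136 counts for the lowest member in a library and 45574 for the highest. miR-151 itself was not analysed here, so the deletion is unchecked in these libraries. All 10 NSC markers of the list were detected in every library, and 3 were called higher in cko (*Nes*, *Hes5* and *Prom1*) and 2 lower, *Slc1a3* (-0.79 on the log2 scale, adjusted p = 0.00639 in edgeR) and *Hes1* (-1.04, adjusted p = 0.00588), with a list median of 0.06. *Emx1*, the gene whose promoter drives Cre, had at most 10 counts in a library. Microglial markers reached at most 10 counts in a library. Of the endothelial markers, *Cdh5* had no counts, *Pecam1* 6 to 10 and *Kdr* 77 to 140. The summed astrocyte markers (6 genes) lay at 1689 and 2604 CPM in ctrl and between 772 and 1353 in cko, the summed oligodendrocyte lineage markers (10 genes) at 3455 and 4116 in ctrl and 3508 to 3677 in cko, and the proliferation genes (5 of 5 called higher) at 716 and 796 against 1484 to 1945. Transcripts of the Y chromosome were higher in cko, 4 of 4, with *Kdm5d* at 25.0 and 27.0 CPM in ctrl and 68.9, 69.1 and 67.5 in cko. *Xist* fell from 2720 ± 234 (SD, n = 2) to 842 ± 53.7 (SD, n = 3) CPM. *Xist* and the Y transcripts were both counted in every library, so no library reads as 1 sex alone. The sexes of the embryos are not given in the sources used here. The part of these differences in the results below was not tested, and in bulk RNA a change in the share of a cell type and a change in RNA per cell cannot be told apart.

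Levels per exon length (TPM, scaled to the same sum in every library) placed *Sox2* and *Sox4* far above the other members. In ctrl NSCs *Sox2* was at 1159 and 1069 TPM and *Sox4* at 1144 and 1036, so that these 2 genes did not differ beyond the spread of the ctrl libraries. Together they held most of the summed SOX signal, 36.4% for *Sox2* and 35.6% for *Sox4* on average. *Sox3* followed with 290 ± 10.9 (SD, n = 2) TPM and *Sox21* with 163 ± 47.2. From *Sox21* through *Sox12* (115 ± 13.9), *Sox6* (107 ± 18.8) and *Sox11* (79.4 ± 12.8) to *Sox1* (69.3 ± 15.5), each gene's SD range overlapped that of the next, so their order is not settled. *Sox5* at 24.8 ± 1.11 and *Sox13* at 8.06 ± 0.957 TPM stood below them. In cko NSCs *Sox4* reached 1690, 1607 and 1640 TPM and *Sox2* 1170, 1200 and 1175. With the exon lengths used, *Sox4* was above *Sox2* in every cko library and slightly below it in both ctrl libraries. The order in ctrl depends on these lengths and is not settled. The RefSeq window before the start of *Sox2* ends at 34649994, upstream of the GENCODE start at 34650405. A longer *Sox2* would have a lower TPM in every library. The ratio of *Sox4* to *Sox2* was 0.987 and 0.970 in ctrl and 1.44, 1.34 and 1.40 in cko. The 10 genes summed to 3192 and 2929 TPM in ctrl and to 3884, 3967 and 3912 in cko NSCs, with no overlap. Most of that difference lay in group C, which went from 1285 ± 49.6 (SD, n = 2) to 1833 ± 35.4 (SD, n = 3) TPM. Within group C the means went from 1090 to 1646 TPM for *Sox4*, from 79.4 to 90.3 for *Sox11* and from 115 to 96.6 for *Sox12*. Group B1 went from 1473 ± 68.3 to 1691 ± 61.2.

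**Figure D1:**
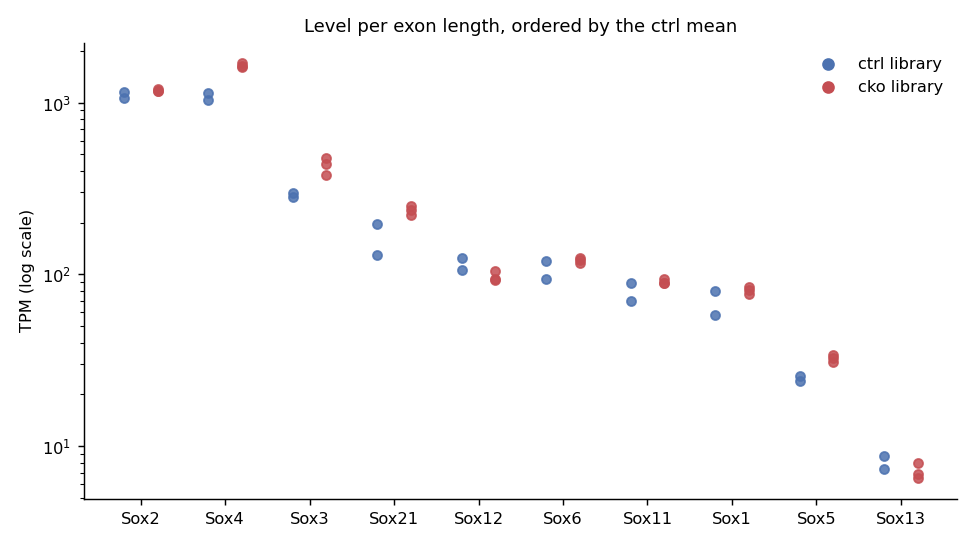
Level of each SOX member in TPM on a log axis, 1 point per library (2 ctrl in blue, 3 cko in red), ordered by the ctrl mean. *Sox2* and *Sox4* lie between 1036 and 1690 TPM in all libraries, and the cko points of *Sox4* (1607 to 1690) sit above its ctrl points (1036 and 1144).

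All 10 members passed the filter on low counts and were tested by edgeR's quasi-likelihood test among 16710 genes. *Sox4*, *Sox3*, *Sox21* and *Sox5* were higher in cko NSCs at a Benjamini-Hochberg adjusted p under 0.05, 1 gene from each SOX group. That is 4 of 10 members, against 7.86% of all tested genes called higher. The members, and the gene lists below, were chosen with earlier results of these data known. Their shares beside those of all genes are therefore descriptions. No member was called lower, where 8.57% of all genes were. The count of lower members was also 0 at an unadjusted p under 0.05 in edgeR and at an adjusted p under 0.05 in DESeq2. The median log2 fold change of the 10 members was 0.23, beside a median of all tested genes near 0 (-0.003). No member reached the study's threshold of a log2 fold change beyond 0.9 with an unadjusted p under 0.01, in edgeR or DESeq2, which 2.39% of tested genes passed upward and 4.17% downward. Of the 6 members whose ctrl and cko libraries did not overlap, all 6 were higher in cko, beside 25.4% of tested genes, and no member was fully below, beside 24.3%.

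**Figure D2:**
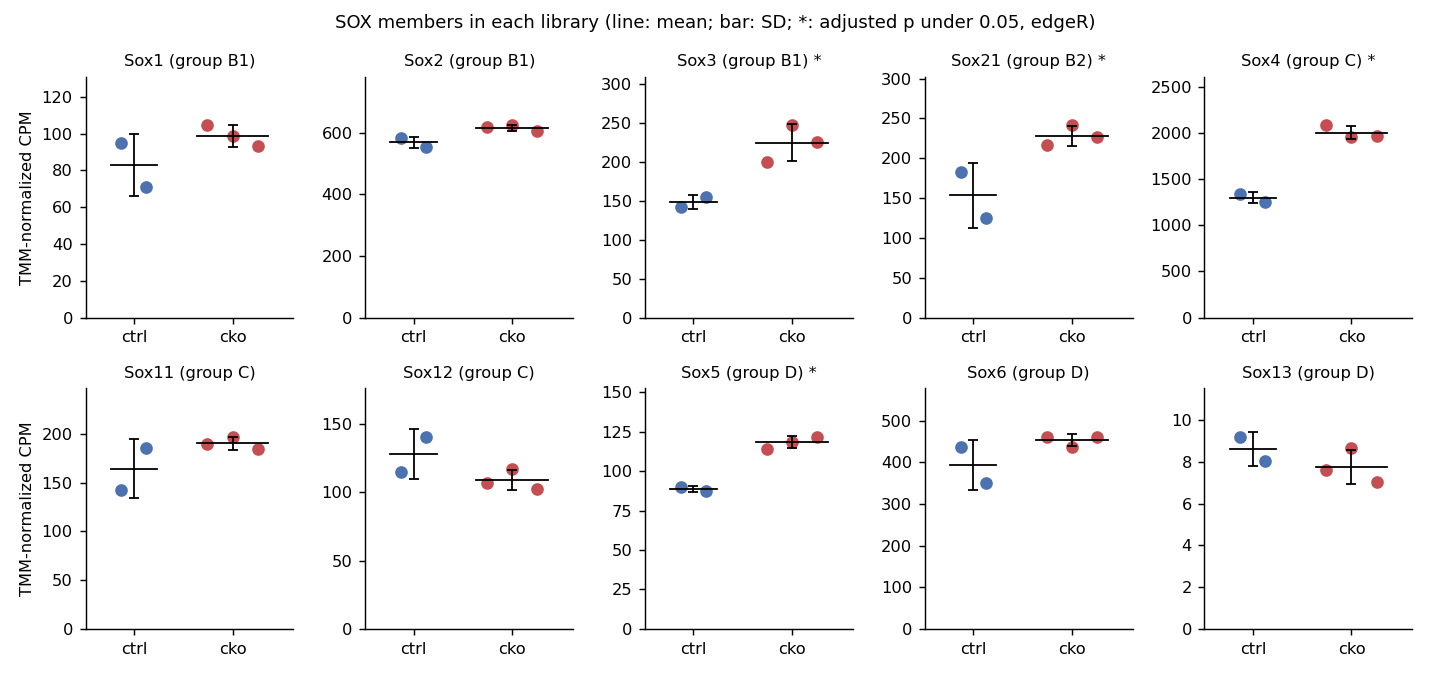
TMM-normalized CPM of the 10 SOX members in each library, with 2 ctrl (blue) and 3 cko (red) points, the mean as a line and the SD as a bar; every axis starts at 0. The 4 genes marked with an asterisk had an adjusted p under 0.05 in edgeR, and their cko points all lie above their ctrl points.

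In group B1, *Sox2*, the gene most used to mark NSCs, was measured at 582 and 556 normalized CPM in ctrl and at 619, 625 and 606 in cko. The cko libraries were all higher than the ctrl libraries, but by little. The log2 fold change was 0.12 (95% confidence interval -0.05 to 0.29, standard error 0.07, adjusted p = 0.314 in edgeR), so the interval reaches from a slight decrease to a rise of 0.29. Its overlapping transcript *Sox2ot*, a long noncoding RNA, stood at 41.5 and 28.7 CPM in ctrl and 31.7, 27.5 and 25.3 in cko, which overlapped (log2 fold change -0.32, adjusted p = 0.236 in edgeR). *Sox3*, the X-linked member of the group, was at 142 and 155 CPM in ctrl and at 200, 247 and 226 in cko. All cko libraries lay above both ctrl libraries, with a log2 fold change of 0.59 (interval 0.35 to 0.84, standard error 0.11, adjusted p = 0.0112 in edgeR). *Xist* and the Y-linked transcripts moved with genotype as given above, and their part in the difference of this X-linked gene was not tested. *Sox1*, the member of the group most restricted to the neural lineage, was at 94.7 and 71.2 CPM in ctrl and at 105, 98.7 and 93.0 in cko. Here the groups overlapped and the ctrl libraries differed from each other by more (0.41 on the log2 scale) than the genotypes did (0.25, interval -0.04 to 0.55, adjusted p = 0.215 in edgeR). The ratio of *Sox3* to *Sox2* in TPM was 0.243 and 0.278 in ctrl against 0.322, 0.394 and 0.372 in cko, a description chosen after the values were seen.

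*Sox21*, which counteracts B1 factors and promotes exit from the progenitor state, was at 182 and 124 CPM in ctrl and at 216, 242 and 226 in cko. The cko libraries were all higher, and ctrl library 3 was far below ctrl library 1. Its log2 fold change of 0.57 (interval 0.21 to 0.93, standard error 0.15) had an adjusted p of 0.0446 in edgeR, close to the threshold. Between the ctrl libraries alone the difference was 0.55, so that the estimate was 0.33 without ctrl library 3 and 0.86 without ctrl library 1. With any 1 cko library left out *Sox21* was no longer called (adjusted p up to 0.157 in edgeR).

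In group C, *Sox4*, the most abundant member by counts, rose from 1341 and 1256 CPM in the ctrl libraries to 2083, 1951 and 1971 in the cko libraries. The ctrl values lay close together and far below every cko value. The log2 fold change was 0.62 (interval 0.43 to 0.82, standard error 0.08), a 1.54-fold difference, with an adjusted p of 0.00431 in edgeR. *Sox4* was the only one of the 10 that stayed called in all 5 fits that left out 1 library, where its log2 fold change lay between 0.58 and 0.66. Its close relative *Sox11*, with 93.3% of residues of the compared stretch in common, was at 143 and 186 CPM in ctrl and at 189, 197 and 184 in cko. The groups overlapped, since ctrl library 3 was at the cko level and ctrl library 1 below it (log2 fold change 0.21, interval -0.06 to 0.48, adjusted p = 0.245 in edgeR). *Sox12*, the third and weakest activator of the group, was at 115 and 141 CPM in ctrl and at 107, 118 and 103 in cko, with a log2 fold change of -0.23 (interval -0.48 to 0.02, adjusted p = 0.185 in edgeR). *Sox11* and *Sox12* were both higher in ctrl library 3 than in ctrl library 1, by 0.38 and 0.29 on the log2 scale. Without ctrl library 1, *Sox12* was called lower (-0.38, adjusted p = 0.0213 in edgeR), and without ctrl library 3, *Sox11* was called higher (0.42, adjusted p = 0.00725). With the other ctrl library left out instead, *Sox12* was at -0.07 (adjusted p = 0.639 in edgeR) and *Sox11* at 0.02 (adjusted p = 0.858).

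In group D, *Sox5* rose from 89.8 and 87.2 CPM in ctrl to 114, 118 and 122 in cko. It had the tightest ctrl libraries of the 10 members, and its log2 fold change was 0.42 (interval 0.25 to 0.59, standard error 0.07, adjusted p = 0.0103 in edgeR). Its antisense genes *Sox5os1*, *Sox5os2* and *Sox5os3* had at most 5 counts in a library. *Sox6*, which acts with SOX5 in most of the tissues that make both, was at 436 and 352 CPM in ctrl and at 462, 438 and 462 in cko. The lowest cko library was barely above ctrl library 1, and the log2 fold change was 0.20 (interval -0.04 to 0.45, adjusted p = 0.218 in edgeR). *Sox13* was the rarest member, at 9.21 and 8.05 CPM in ctrl and 7.60, 8.65 and 7.02 in cko, with overlapping groups and a log2 fold change of -0.15 (interval -0.55 to 0.24, adjusted p = 0.578 in edgeR). Without cko library 2 or without cko library 3, the calls of *Sox3* and *Sox5* were lost as well (adjusted p between 0.0596 and 0.0726 in edgeR), while their log2 fold changes stayed between 0.51 and 0.66 and between 0.39 and 0.43 over all 5 fits.

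**Figure D3:**
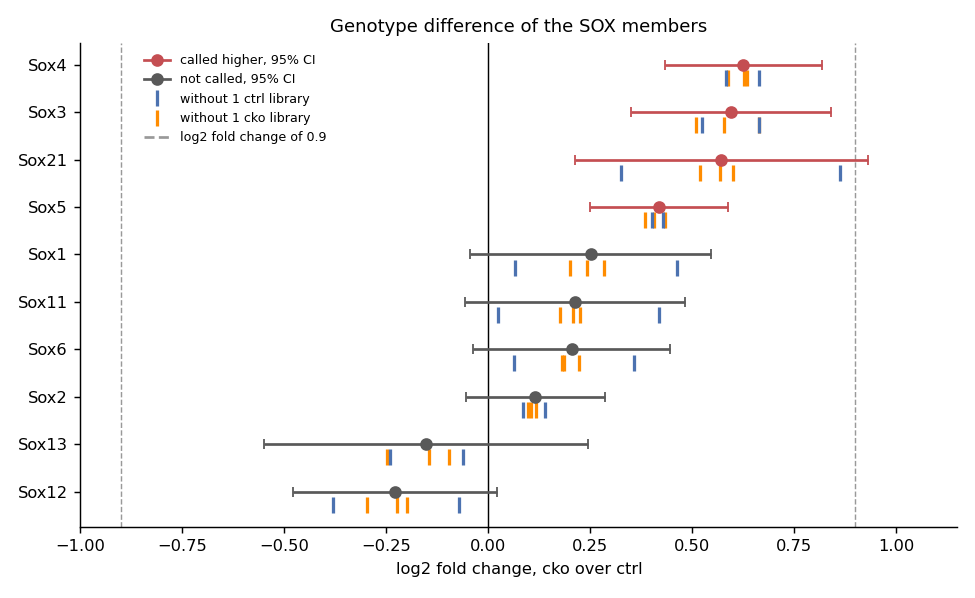
Log2 fold change of each SOX member, cko over ctrl, with its 95% confidence interval from the edgeR fit (red for the 4 genes called higher, grey for the 6 not called). Ticks below each point give the value without 1 ctrl (blue) or 1 cko (orange) library, and the dashed lines mark 0.9. The ticks of *Sox4* and *Sox5* stay close to the point, and the blue ticks of *Sox21* spread from 0.33 to 0.86.

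The spread between the ctrl libraries was a property of some members more than others. The ctrl libraries differed by more than the genotypes did in 5 of the 10 genes, *Sox1*, *Sox6*, *Sox11*, *Sox12* and *Sox13*, none of which was called with all 5 libraries. Without ctrl library 1, *Sox1* was called higher (0.46, adjusted p = 0.00957 in edgeR), as was *Sox6* (0.36, adjusted p = 0.0107). Without ctrl library 3 they were at 0.06 each and not called (adjusted p = 0.669 for *Sox1* and 0.603 for *Sox6* in edgeR). The median absolute log2 difference between ctrl libraries 1 and 3 was 0.24 for the members and 0.23 for all tested genes. In 7 of the 10 members ctrl library 1 was the higher one, and *Sox3*, *Sox11* and *Sox12* were the exceptions. For the counts of 5 and 7 of the 10 members, the shares over all tested genes were not computed.

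The regions before the start sites were compared because several members were higher together. RefSeq start sites on GRCm38.p6 were found for 9 of the 10 genes, 14 windows of 250 bases in all, 6 of them from *Sox6*. *Sox3* had no entry. The windows of *Sox2* (chr3:34649745-34649994, plus strand), which was not called, and *Sox4* (chr13:28953700-28953949, minus strand), which was called most firmly, are shown 5′ to 3′, with capitals for matches on either strand to the SOX motifs ACAAAG and ACAATG, the RBPJ motif TGGGAA, the CCAAT box and the TATA box TATAAA.
Sox2: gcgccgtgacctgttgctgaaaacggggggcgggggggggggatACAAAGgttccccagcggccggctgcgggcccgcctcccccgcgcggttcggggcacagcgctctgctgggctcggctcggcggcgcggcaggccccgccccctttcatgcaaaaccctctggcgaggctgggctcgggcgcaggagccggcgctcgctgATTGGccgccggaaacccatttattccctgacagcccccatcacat
Sox4: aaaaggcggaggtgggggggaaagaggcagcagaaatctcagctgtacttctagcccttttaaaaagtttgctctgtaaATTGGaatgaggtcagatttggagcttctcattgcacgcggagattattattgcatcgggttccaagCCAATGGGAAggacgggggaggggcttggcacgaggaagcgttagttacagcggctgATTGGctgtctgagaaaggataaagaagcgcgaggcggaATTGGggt

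The *Sox4* window held 4 CCAAT boxes, 1 of which overlaps its single TGGGAA, the core recognized by RBPJ, the DNA-binding partner of Notch. The *Sox2* window held 1 ACAAAG and 1 CCAAT box. CCAAT boxes also lay in windows of genes not called, 1 each for *Sox1*, *Sox11* and *Sox12*, and 3 and 1 in windows of *Sox6*. Among all 32851 windows, CCAAT occurred at least once in 33.8%, TGGGAA in 21.6%, ACAAAG in 16.5%, ACAATG in 10.7% and TATAAA in 12.4%. The number of matches per window was not computed over all windows. The *Sox21* window, of a gene also called higher, held none of the motifs, and that of *Sox13*, not called, held 1 TGGGAA. The *Sox5* window, of another gene called higher, held 1 ACAATG. It lay inside the gene (chr6:143947107-143947356, minus strand), far from the annotated 5′ end at 144781977, so it stands for 1 internal start site. Of the 6 windows of *Sox6*, which was not called, 5 held ACAAAG. The *Sox4* window was 50.8% G or C, and that of *Sox21* 65.2%. A match describes the letters of the window and no more.

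In the rest of the SOX family, 4 of 10 genes passed the filter, with a median log2 fold change of 0.14, and only *Sox10* was called, lower. SOX10 drives oligodendrocyte maturation, and its gene stood at 161 and 189 CPM in ctrl against 54.4, 41.2 and 45.3 in cko (log2 fold change -1.90, adjusted p = 0.000668 in edgeR). The other SOXE genes, *Sox9*, which starts gliogenesis, and *Sox8*, were not called, with log2 differences of 0.25 for *Sox9* (adjusted p = 0.157 in edgeR) and 0.02 for *Sox8* (interval -0.14 to 0.18). *Sox30* had at most 16 counts and was not called. *Sox7*, *Sox15* and *Sox18* were at most at 16, 5 and 4 counts, and *Sox14*, *Sox17* and *Sry* were not analysed here. None of these genes was called higher in edgeR or DESeq2, and none had an unadjusted p under 0.05 upward.

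Partners of the B1 factors were read from a list of 8 genes, of which 3 were called higher, beside 7.86% of all tested genes. The POU factors *Pou3f4*, at 48.2 ± 3.44 (SD, n = 2) against 68.0 ± 1.93 (SD, n = 3) CPM, and *Pou3f3*, at 475 ± 24.2 against 607 ± 5.62, were higher in cko, as was the chromatin remodeller *Chd7* (266 ± 20.8 against 328 ± 13.8). On the log2 scale the differences were 0.50 for *Pou3f4* (adjusted p = 0.00905 in edgeR), 0.35 for *Pou3f3* (0.0207) and 0.30 for *Chd7* (0.0486). *Pou3f4*, like *Sox3*, is X-linked, and *Pou3f3* is not. The other 5 were not called, the list median was -0.06, and none was called lower in edgeR or DESeq2 (1 at an unadjusted p under 0.05). The calls of *Pou3f3* and *Chd7* were lost when any 1 cko library was left out, that of *Chd7* also without ctrl library 3, and that of *Pou3f4* without cko library 2 or 3.

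Of 15 genes known as targets of B1 factors, 14 were tested, 4 were higher, 3 lower and 7 not called, with a median of 0.12; of all tested genes, 7.86% were higher and 8.57% lower. The intermediate filament gene *Nes*, whose neural enhancer is a classic site of SOX and POU binding, went from 503 ± 47.1 (SD, n = 2) to 991 ± 103 (SD, n = 3) CPM (log2 fold change 0.98, adjusted p = 0.00287 in edgeR). The Notch effector *Hes5* (0.93, adjusted p = 0.00107), the receptor *Notch1* (0.49, adjusted p = 0.00867) and the growth factor receptor *Egfr* (0.32, adjusted p = 0.033) were the others that rose in the same test. The Hedgehog effectors *Gli2* (-1.08, adjusted p = 0.012 in edgeR) and *Gli3* (-1.04, adjusted p = 0.0269) fell. *Lin28b*, a regulator of developmental timing, had 0 counts in all 3 cko libraries and 0.916 and 0.906 CPM in ctrl, which makes it at least 5.43-fold lower against a floor of 3 counts per library. Set to that bound, *Lin28b* is still the lowest gene of the list, so the list median could not change. *Nes*, *Hes5* and *Lin28b* stayed called in each of the 5 fits without 1 library, whereas *Notch1* and *Gli2* were lost without cko library 2 or 3, *Egfr* without any 1 cko library, and *Gli3* without cko library 2, cko library 3 or ctrl library 1.

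Among 9 neuronal genes that group C factors activate, 2 were higher and 1 lower, beside 7.86% and 8.57% of all tested genes, with a median of 0.14. The microtubule regulator *Stmn1* (142 ± 19.1 against 324 ± 27.2 CPM, log2 fold change 1.19, adjusted p = 0.00184 in edgeR) and the RNA-binding *Elavl4* (32.1 ± 2.77 against 79.0 ± 1.38 CPM, 1.297, adjusted p = 0.000668) rose. *Dcx*, which marks migrating neuroblasts, fell from 124 ± 33.4 to 43.5 ± 9.75 CPM (-1.51, adjusted p = 0.00486 in edgeR). *Tubb3*, a known target of SOX4 and SOX11, was at 29.4 and 18.4 CPM in ctrl and between 25.8 and 25.9 in cko (0.11, interval -0.33 to 0.54, adjusted p = 0.733 in edgeR). All 3 called genes stayed called without any 1 library.

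Genes of the oligodendrocyte lineage, where SOX5 and SOX6 act against SOXE proteins, were called in both directions. Of 11 genes, 6 were lower and 2 higher, where the shares over all tested genes were 8.57% and 7.86%, and the list median was -0.60. *Mbp* (-4.16), *Myrf* (-2.90), *Sox10* (-1.90) and *Cnp* (-0.78) fell, each of these also in every fit without 1 library, and *Nkx2-2* fell by 0.60 on the log2 scale, a call that was lost without cko library 2 or 3. In edgeR the adjusted p ranged from 0.000146 for *Myrf* to 0.0155 for *Nkx2-2*. The transcription factor genes *Olig1* (0.63, adjusted p = 0.0108 in edgeR) and *Olig2* (0.38, adjusted p = 0.0444) rose, but not when cko library 2 or 3 was left out, nor for *Olig2* without cko library 1 or ctrl library 1. *Pdgfra*, the receptor of precursors, was not called (0.45, adjusted p = 0.0942 in edgeR).

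**Figure D4:**
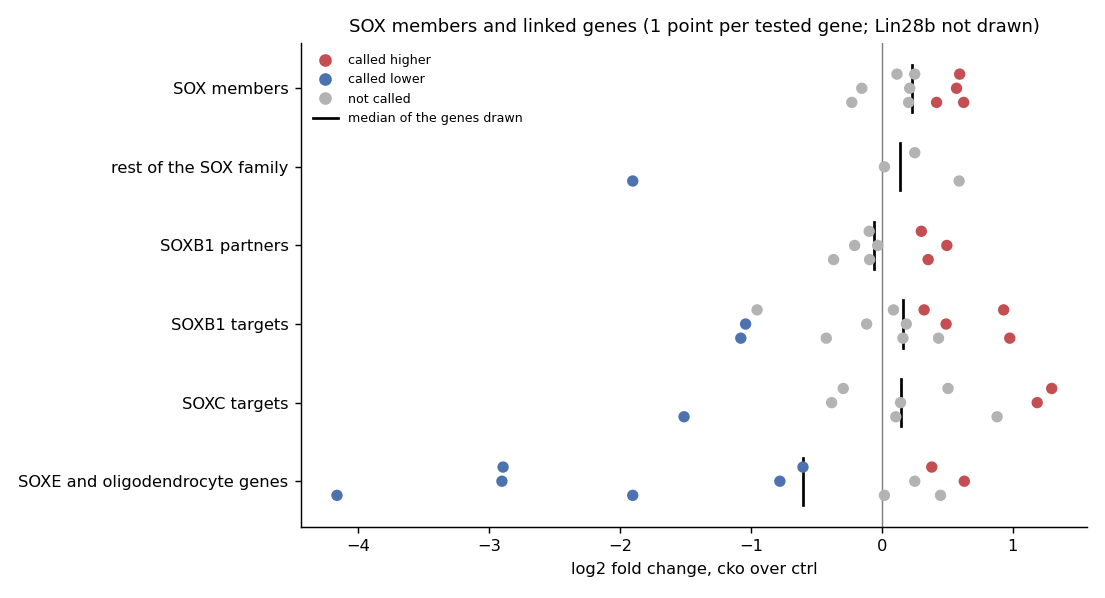
Log2 fold change, cko over ctrl, of the SOX members and of 5 lists of linked genes, 1 point per tested gene (red called higher, blue called lower, grey not called), with the median of the genes drawn as a black line. *Lin28b*, with no counts in cko, is not drawn and not in the median of its row, which is 0.12 with it. The 4 red SOX members lie between 0.42 and 0.62, and the oligodendrocyte genes reach down to -4.16.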

How the data were processed

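RNA-seq counts per Ensembl gene were deposited by the authors as raw counts for 3 ctrl and 3 cko columns, without normalization. Per the study's methods, reads were checked with FastQC, filtered with NGSQC and aligned to mm10 with HISAT2, while the labels list GRCm39. The counting tool, its annotation and its use of strand are not given in the sources used here. Overlapping and antisense genes are therefore uncertain. Of 32493 identifiers, 31829 were given names, positions and lengths by GENCODE M21 (GRCm38).

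Counts of the 5 columns other than ctrl replicate 2 (17883796 to 23335736 per library) were filtered by edgeR 4.0.16 in R 4.3.3 with genotype as the group. They were scaled with TMM factors and compared over 16710 genes with the quasi-likelihood test of edgeR. Confidence intervals (95%) were derived from the F statistic and its degrees of freedom. TPM used the union of exons as the length. The members and lists were chosen with earlier results of these data known. Besides the members, the rest of the SOX family and their neighbours, every gene called in a list is named, except 1 that is not reported here; *Tubb3* and *Pdgfra* were picked after their values were seen. Results were recomputed with DESeq2 1.42.0, with its size factors in edgeR, other filters, the replicate block, all 6 columns, and leaving out each library, which for the linked lists was added after the data were seen. The steps were tested on simulated data. The planned search for seed sites was not run, and miR-151 sequences were not used here. Figures were drawn with matplotlib 3.10.9.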

Additional observations from a re-analysis of the deposited data

How the results depend on the processing

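Over 12 alternatives, every one of the 10 members kept the sign of its log2 fold change (120 of 120 fits), and *Sox4* was called in all of them. The count of members called higher was 4, and lay between 1 and 6 when 1 library was left out; it was 1, *Sox4*, without cko library 2 or 3. The count of members called lower was 0 and lay between 0 and 1, the 1 being *Sox12* without ctrl library 1. With all 6 columns and the replicate block 5 members were called higher. Of all genes, 317 to 1810 were called higher and 416 to 2062 lower without 1 library. All 6 columns gave 2797 higher and 2860 lower, with the replicate block 2604 and 2745, and no filter gave 2237 lower. The fits with all 6 columns count ctrl replicate 2, the rounded-up average of replicates 1 and 3, as a library of its own. That column adds no measurement and lies between the other ctrl columns, so these fits understate the ctrl spread. Fewer libraries enter each fit that leaves 1 out, and the cause of the other moves was not tested. Without ctrl library 1 or 3 a lone ctrl sample was assumed to vary like the cko samples.

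The replicate numbers mark no shared origin in the labels, and the difference of ctrl libraries 1 and 3 correlated weakly with that of cko libraries 1 and 3 across genes (Pearson's r = 0.137, a description). With the number as a block 4 members were called higher and 0 lower, and 1 of the B1 partners was called higher in place of 3. DESeq2 called 2 C targets lower in place of 1. When 1 library was left out, the calls ranged from 0 to 1 higher for the rest of the family, 0 to 3 higher and 0 to 1 lower for the B1 partners, 2 to 5 higher and 1 to 4 lower for the B1 targets, 1 to 2 lower for the C targets and 0 to 3 higher for the oligodendrocyte list. Taking the longest transcript as the length left 7 of the 10 members at their rank. The alternative for seed sites was not run.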
